A study of Mus musculus and Rattus norvegicus with 32 samples.

Results

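Splicing factors, RNA helicases and RNA decay enzymes were followed in the livers of mice and rats given trichloroethylene (TCE) or its vehicle. Members were all probe sets with 1 annotated symbol that starts with Srsf, Hnrnp, Snrp, Sf3, Prpf, Ddx or Dhx, together with Crnkl1, Xrn1 and Xrn2. The rule found 116 probe sets of 82 genes among 12422 mouse probe sets and 45 probe sets of 28 genes among 8740 rat probe sets. Of these genes, 23 were measured in both species. In mouse the members were 37 Ddx, 22 Hnrnp, 16 Srsf, 10 Snrp, 10 Sf3, 10 Prpf and 8 Dhx probe sets, with 1 each for Crnkl1, Xrn1 and Xrn2. In rat they were 18 Hnrnp, 12 Ddx, 7 Srsf, 3 Dhx, 2 Snrp, 1 Sf3 and 1 Prpf probe sets and 1 for Xrn2.

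The animals were male B6C3F1 mice and male SD rats. By oral gavage they were given 1500 mg/kg TCE in corn oil, or corn oil alone, either once or daily for 14 days. Liver was collected 18 h after the final gavage. Animals of the single-dose groups were 8 weeks old and those of the repeated-dose groups 10 weeks old, so that schedule and age cannot be told apart. There were 8 groups (species by schedule by treatment) of 4 arrays. The labels do not tie each array to its own animal. A p-value here weighs a difference between groups against the spread among these arrays. That spread may be partly technical and may leave out variation between animals. The series set out to compare the response of the species.

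Pre-mRNA splicing is carried out by the spliceosome, which assembles on each intron from small nuclear ribonucleoproteins. SR proteins (Srsf) mostly promote the use of the exons they bind, and heterogeneous nuclear ribonucleoproteins (Hnrnp) often repress it, although both also act in mRNA export, stability and translation. DEAD-box (Ddx) and DEAH-box (Dhx) proteins use ATP to remodel RNA at every stage from transcription and splicing to ribosome assembly, translation and decay. Xrn1 in the cytoplasm and Xrn2 in the nucleus are exonucleases that degrade RNA from its 5′ end, and Crnkl1 is a scaffold protein of the active spliceosome.

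Every deposited value was a ratio, with the array's value divided by the oil-group median for that species and dosing schedule. Levels of different genes therefore cannot be compared, no value can be called above or below background, and the liver label cannot be checked by the level of hepatocyte markers. RNA quality was read from the 3' minus 5' log2 ratio of the Gapdh control probe sets, and it varied among arrays. Control values were ratios as well, so this value is relative to the oil arrays of that species and schedule. It gives no absolute quality. This value was above 1 on 3 of 4 mouse TCE arrays after either schedule, on 1 mouse oil array of the repeated schedule, and on 1 and 2 rat TCE arrays after single and repeated doses. Its mean was 1.54 higher on TCE than on oil arrays in mouse after a single dose (exact permutation test, two-sided, p = 0.0571, n = 4 against 4, where the smallest p possible is 0.0286). After repeated doses the difference was 0.78 (exact p = 0.371). In rat it was 0.30 (exact p = 0.886) and 1.08 (exact p = 0.0571). The same value of the actin control probe sets was 0.76 higher on TCE than on oil arrays in mouse after a single dose (exact p = 0.0286) and 0.72 higher after repeated doses (exact p = 0.0571). In rat the actin difference was 0.06 (exact p = 0.857) and 0.70 (exact p = 0.229). In bulk liver, fewer cells of a type and less RNA per cell cannot be told apart.

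In mice given TCE for 14 days, transcripts of this group were lower than in mice given oil. A probe set was called where its limma p-value, adjusted by Benjamini-Hochberg over all mouse probe sets, was under 0.05. By this rule 38 of 116 members (32.8%) of 33 genes fell and 1 rose, where 8.48% of all probe sets fell and 2.24% rose. All 4 TCE arrays lay below all 4 oil arrays in 38 members, against 12.4% of all probe sets, and above them in 4, against 4.6%. At an unadjusted p under 0.05, 51 were lower and 6 higher, against 20% and 7.53% of all probe sets. The log2 change was below 0 in 93 of 116 members, against 61% of all probe sets. The median log2 change was -0.50 for the members and -0.15 for all probe sets. After a single dose the same medians were -0.01 and -0.09.

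The shift was present on each array. On the 4 mouse repeated-dose TCE arrays, the median log2 ratio over the 116 members was -0.54, -0.57, -0.41 and -0.46, while the median of all probe sets on these arrays was -0.16, -0.19, -0.15 and -0.14. On the 4 matching oil arrays the members' median lay between -0.03 and 0.06. On the 4 single-dose TCE arrays it was -0.02, -0.06, -0.01 and -0.14. The Gapdh 3' minus 5' value was -0.36, 1.71, 1.30 and 1.48 on the 4 repeated-dose TCE arrays. The actin value was 0.21, 1.11, 0.48 and 0.77 on these arrays and between -0.29 and 0.28 on the matching oil arrays. The part of the actin value in the members' changes was not tested.

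**Figure D1:**
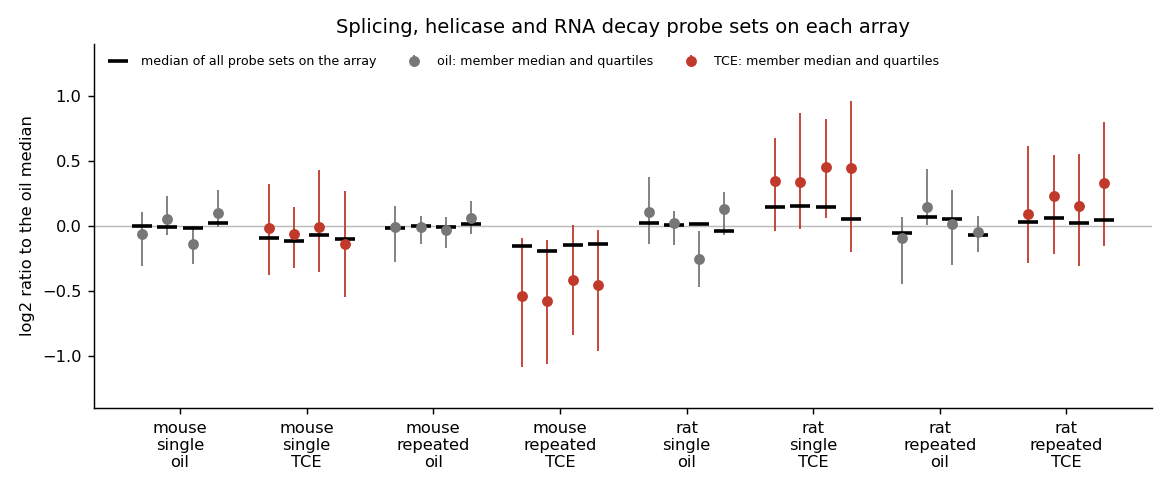
Median (points) and quartiles (bars) of the members' log2 ratio to the oil median on each array, by species, schedule and treatment, with the median of all probe sets on the array as a black dash. The 4 mouse repeated-dose TCE arrays lie between -0.57 and -0.41 for the members, below every other mouse array, and the 4 rat single-dose TCE arrays lie between 0.34 and 0.46.

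Every family held members that fell after repeated doses in mouse. Of the members, 14 of 37 Ddx, 7 of 22 Hnrnp, 6 of 16 Srsf, 3 of 10 Sf3, 3 of 10 Prpf, 2 of 10 Snrp and 1 of 8 Dhx probe sets fell, as did Crnkl1 and Xrn1. Median log2 changes were -0.60 for Prpf, -0.56 for Srsf, -0.53 for Ddx, -0.50 for Hnrnp and -0.39 for Sf3 probe sets. They were -0.25 for Snrp and -0.16 for Dhx probe sets, close to the -0.15 of all probe sets. No test of a difference between families was run.

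Among the SR proteins, Srsf3 changed with the smallest p. Srsf3 is the smallest SR protein and also serves as an adaptor for mRNA export. On 1 of its 2 probe sets it read 0.324, 0.334, 0.381 and 0.367 on the 4 repeated-dose TCE arrays and 1.12, 1.16, 0.732 and 0.882 on the oil arrays. The groups did not overlap, and Srsf3 was 2.72-fold lower (log2 change -1.45 ± 0.19 SE, limma adjusted p = 0.00106). The other Srsf3 probe set gave -0.10 ± 0.31 and overlapped between the groups. Letters before "_at" in a probe set's name (f, g, i, r, s) mark probes that can match related transcripts or miss the usual design rules, and the called Srsf3 probe set carries such a letter, as do, among others, the called ones of Crnkl1, Snrpb2 and Srsf1, 1 of the 2 called of Ddx3x and 2 of the 3 of Ddx6.

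Srsf5, an SR protein first known as an insulin-induced gene of regenerating liver, fell with no overlap. Its ratios were 0.608, 0.468, 0.377 and 0.403 under TCE and 1.06, 0.939, 0.839 and 1.23 under oil (log2 change -1.14 ± 0.19, adjusted p = 0.00327). Both Srsf4 probe sets fell, by 1.04 and 0.69 on the log2 scale. Srsf10, an SR protein that can repress splicing when dephosphorylated, read 0.385, 0.272, 0.626 and 0.0952 under TCE and 0.714, 1.40, 0.927 and 1.07 under oil on 1 of 2 probe sets. TCE array 4 was far below the others, and the fall of 1.83 ± 0.43 (adjusted p = 0.0176) was lost without oil array 2 (adjusted p = 0.0541). Srsf1, among the first SR proteins described, fell on 1 of 4 probe sets. It read 0.298, 0.645, 0.476 and 0.114 under TCE against 1.05, 0.641, 1.07 and 0.954 under oil, with a slight overlap. This call (-1.51 ± 0.43, adjusted p = 0.0387) was lost when any 1 of 6 of the 8 arrays was left out, with adjusted p up to 0.0823, and the other 3 Srsf1 probe sets changed by -0.34, -0.17 and 0.61 and were not called.

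Among the hnRNP proteins, Hnrnph1, Hnrnpl and Hnrnph2 fell most. Hnrnph1, which binds runs of guanines, read 0.378, 0.436, 0.493 and 0.413 under TCE and 0.867, 0.892, 1.11 and 1.14 under oil. All TCE values lay below all oil values (log2 change -1.21 ± 0.17, adjusted p = 0.00132). Hnrnpl, which binds CA repeats, read 0.513, 0.384, 0.402 and 0.485 under TCE and 0.948, 1.05, 0.943 and 1.70 under oil, again without overlap (-1.34 ± 0.23, adjusted p = 0.00408). Hnrnph2, a close relative of Hnrnph1, fell by 1.26 ± 0.26. Hnrnpa1, a repressor of many exons, fell by 0.86, Hnrnpk, which binds runs of cytosines, by 0.84, Hnrnpul2 by 0.81 on 1 of 2 probe sets and Hnrnpm by 0.74. The remaining 15 Hnrnp probe sets were not called and ranged from -0.76 to 0.78.

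The core of the spliceosome's particles was represented by Sm proteins, by the factor that recognises the branch point and by Prpf proteins. Snrpd3, a protein of the ring that surrounds the spliceosomal RNAs, read 0.584, 0.228, 0.287 and 0.271 under TCE and 0.553, 1.01, 0.992 and 1.17 under oil. Oil array 1 lay within the TCE range, and the fall was 1.49 ± 0.29 (adjusted p = 0.00727). Snrpe, another ring protein, fell by 0.57 ± 0.16. Snrpb2, a protein of the particle that binds the branch point, was the only member that rose. It read 1.35, 1.35, 2.34 and 1.72 under TCE and 0.994, 0.898, 1.01 and 1.01 under oil on 1 of 2 probe sets (0.75 ± 0.23, adjusted p = 0.0488). That call was lost when any 1 of 7 of the 8 arrays was left out, all but TCE array 1 (adjusted p up to 0.118), and the other Snrpb2 probe set gave -0.35 and was not called.

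Of the branch point complex, Sf3a3, Sf3b1 and Sf3b2 fell, by 0.68 ± 0.15, 0.80 ± 0.22 and 0.75 ± 0.18 on the log2 scale. Sf3b1, the large subunit that clamps the branch point, had a second probe set at -0.23 that was not called. Prpf19, the ubiquitin ligase at the core of the complex that stabilises the active spliceosome, read 0.516, 0.485, 0.538 and 0.513 under TCE and 1.33, 0.932, 0.933 and 1.07 under oil. The groups did not overlap, and the fall was 1.04 ± 0.16 (adjusted p = 0.00234). A second Prpf19 probe set gave -0.50 ± 0.36 and was not called. Prpf8, the protein at the catalytic centre, fell by 0.56 ± 0.15. Prpf31, which joins the small nuclear particles before they enter the spliceosome, read 1.10, 0.245, 0.247 and 0.109 under TCE and 0.731, 0.794, 1.21 and 1.46 under oil. TCE array 1 lay within the oil range, and the call (-1.78 ± 0.53, adjusted p = 0.0455) was lost without any 1 of the other 7 arrays (adjusted p up to 0.113).

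Ddx, the family with the most probe sets, also gave the largest number of falls, 14 of 37. For Dhx it was 1 of 8 and for Srsf 6 of 16, where 32.8% of all members fell. Ddx3x, which acts in translation of mRNAs with structured leaders, read 0.355, 0.337, 0.461 and 0.366 under TCE and 0.913, 1.25, 1.01 and 0.990 under oil on 1 of 3 probe sets. It was 2.74-fold lower with no overlap (log2 change -1.45 ± 0.17, adjusted p = 0.000463), the smallest p of any member in this comparison. Another Ddx3x probe set fell by 0.94 ± 0.26, and the last gave 0.06 and was not called. Ddx6, which represses translation and activates decapping of mRNAs, fell on all 3 of its probe sets, by 1.22, 1.29 and 1.32. On the probe set with the smallest p its ratios were 0.339, 0.459, 0.497 and 0.434 under TCE and 0.877, 1.36, 0.956 and 1.04 under oil, without overlap. The probe set with the largest fall lost its call without oil array 2, oil array 4 or TCE array 2 (adjusted p up to 0.0558).

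Both probe sets of Ddx17 fell, by 1.15 and 0.96, and its close relative Ddx5 fell by 1.09 ± 0.22. Ddx5 and Ddx17 are co-regulators of transcription and splicing. Ddx39b, the helicase that loads export factors on mRNA, fell by 0.77 ± 0.13, and Ddx47, needed for ribosomal RNA processing, by 0.73 ± 0.14 on 1 of 2 probe sets. Ddx50, a nucleolar helicase, had the largest fall of all members. On 1 of 4 probe sets it read 0.267, 0.333, 0.0820 and 0.0800 under TCE and 1.01, 1.23, 0.396 and 0.992 under oil (-2.43 ± 0.55, adjusted p = 0.0154). Its other 3 probe sets gave -0.36, -0.32 and 0.52 and were not called. Ddx1, Ddx18 and Ddx24 fell by 0.68, 0.66 and 0.65, each on 1 of 2 probe sets. Of the DEAH-box proteins, Dhx9, which unwinds RNA duplexes in the nucleus, was the only one that fell (-0.69 ± 0.20, adjusted p = 0.0393).

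**Figure D2:**
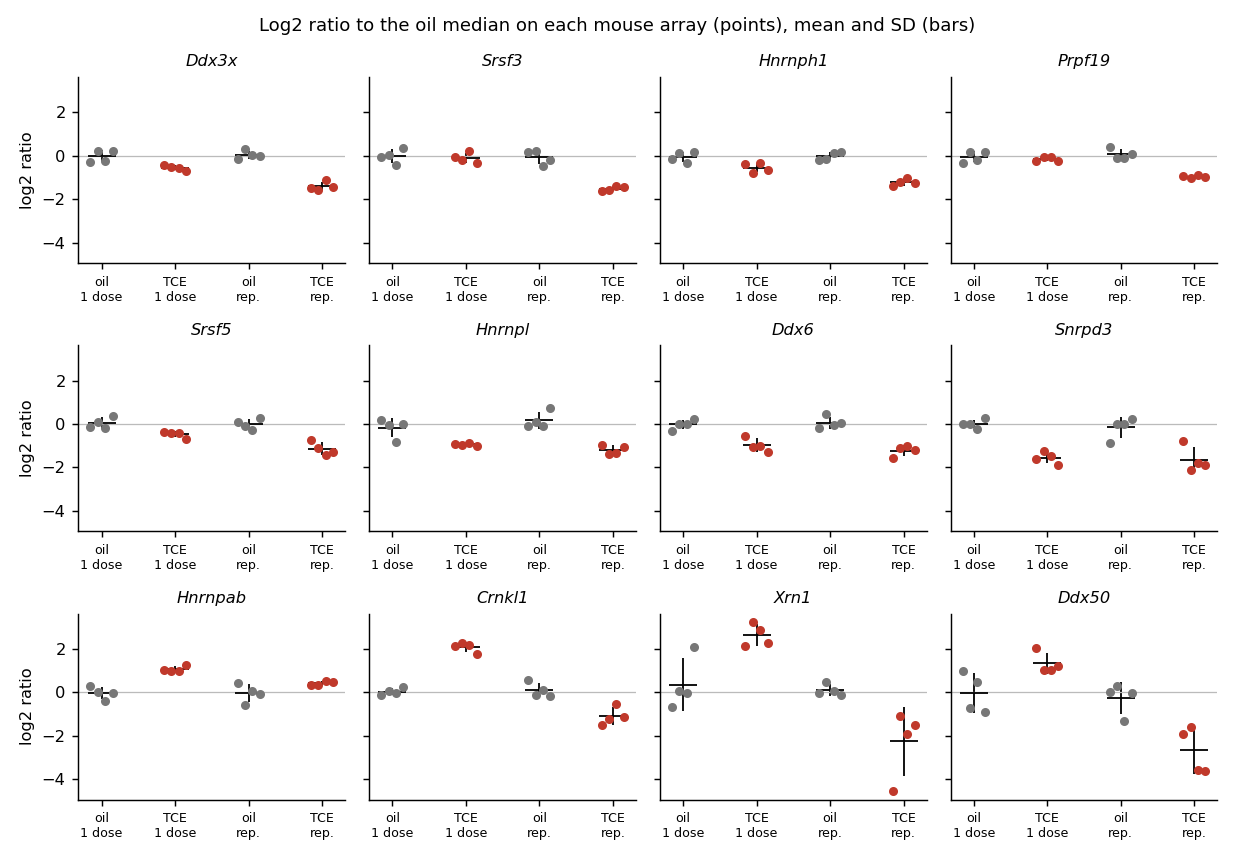
Log2 ratio to the oil median on each mouse array (points) with the group's mean and SD (bars) for 12 member probe sets, by schedule (rep., repeated doses) and treatment. The TCE values of Ddx3x, Srsf3, Hnrnph1, Prpf19, Srsf5 and Hnrnpl all lie below the oil values after repeated doses, and Crnkl1 lies above oil after a single dose and below it after repeated doses.

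The size of the mouse repeated-dose count depended on how the arrays were scaled and how the spread was estimated. The median change over all probe sets was -0.15, with 61% of them below 0. After centring each array on its median, 22 members fell and 3 rose, with 506 probe sets lower and 475 higher in all. The members' median change was -0.34 after centring. With only the 8 arrays compared, 14 members fell and 0 rose in limma, where 2.52% of all probe sets fell. Under that setting 46 members were lower and 2 higher at an unadjusted p under 0.05, against 17.7% and 6.89% of all probe sets. The number called thus went from 39 to 14. Among the calls lost were those of Ddx50, Srsf10, Snrpd3, Prpf31, Srsf1, Snrpb2, Crnkl1, Xrn1 and 1 Ddx6 probe set (limma adjusted p from 0.0520 to 0.138 for these). Other calls given above were lost as well and are not listed. Calls that ended after centring included those of Prpf31 (-1.63, adjusted p = 0.0732), Srsf1 (-1.35, adjusted p = 0.0685) and Xrn1 (-2.21, adjusted p = 0.0591). Without oil array 2, oil array 4 or TCE array 2, 22, 24 and 25 members were called, where 4.22%, 4.80% and 4.51% of all probe sets were called lower. After quantile normalization 0 members were called, where 7 of all probe sets were. Then 24 members were lower and 3 higher at an unadjusted p under 0.05, against 5.33% and 4.66% of all probe sets. Without the arrays of Gapdh value above 1, which leaves TCE array 1 alone in its group, 0 members were called, while 36 were lower and 2 higher at an unadjusted p under 0.05, against 12.9% and 3.53% of all probe sets. The members' median was then -0.54. With the Gapdh value as a covariate, 37 members were called, 36 lower and 1 higher, where 9.68% of all probe sets were called lower.

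Some markers of liver cell types were called in the same comparison, where 8.48% of all probe sets fell and 2.24% rose. Of 5 hepatocyte marker probe sets, Apob (-1.72 ± 0.20) and Tat (-0.59 ± 0.18) fell, and the mean log2 ratio of the 5 was between -0.74 and -0.58 on TCE arrays and between -0.17 and 0.22 on oil arrays. Of 15 Kupffer cell and macrophage probe sets 3 fell and 1 rose, with array means between -0.34 and -0.11 under TCE and between -0.62 and 0.12 under oil. Of 13 stellate cell and matrix probe sets 3 fell and 1 rose, and of 8 endothelial, 9 lymphocyte and 3 erythroid probe sets 1 each fell. None of 7 cholangiocyte probe sets was called, and all 7 marker lists had negative median changes, from -0.54 to -0.11. The part of these changes in the members' fall was not tested.

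A single dose gave few calls among the members in mouse. By limma, 3 of 116 rose and 5 fell, where 4.16% of all probe sets rose and 4.14% fell (8.3% in either direction). The members' shares of 2.59% and 4.31% were thus near or below the background. All TCE arrays lay below all oil arrays in 11 members, against 9.62% of all probe sets, and above them in 7, against 7.96%. The log2 change was below 0 in 60 members, against 57.4% of all probe sets. Crnkl1 rose 4.20-fold. On its only probe set the ratios were 4.41, 4.87, 4.58 and 3.37 under TCE and 0.905, 1.03, 0.969 and 1.18 under oil (log2 change 2.07 ± 0.22, adjusted p = 0.000149). The groups lay far apart, and the call held under all 15 alternatives run for it, quantile normalization included.

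Xrn1 read 4.43, 9.44, 7.40 and 4.81 under TCE and 0.623, 1.04, 0.964 and 4.27 under oil after a single dose. All TCE values lay above all oil values, but oil array 4 was nearly as high, and the change of 2.28 ± 0.68 missed the threshold (adjusted p = 0.0523). Without oil array 4 it was 2.86 (adjusted p = 0.0211). Xrn2 gave 0.29 ± 0.54 with overlapping groups.

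Hnrnpab, an hnRNP protein found on transported mRNAs, rose 2.13-fold on 1 of 2 probe sets. It read 2.04, 1.98, 1.95 and 2.40 under TCE and 1.20, 1.03, 0.756 and 0.975 under oil (1.09 ± 0.20, adjusted p = 0.00564), and the other probe set gave 0.44 and was not called. Snrpd3 read 0.330, 0.423, 0.361 and 0.274 under TCE and 1.004, 0.996, 0.866 and 1.19 under oil, a fall of 1.56 ± 0.29 (adjusted p = 0.00593). Its change differed between the schedules by 0.07 ± 0.41 (adjusted p = 0.950).

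Ddx6 fell on 2 of 3 probe sets after a single dose, by 0.95 ± 0.20 and 1.0 ± 0.25. On the first it read 0.693, 0.485, 0.499 and 0.407 under TCE and 0.808, 0.996, 1.004 and 1.18 under oil. The call on the second was lost without any 1 of 5 of the 8 arrays (adjusted p up to 0.0846). Srsf10 fell by 2.21 ± 0.59 on the probe set that was not called after repeated doses. It read 0.151, 0.553, 0.241 and 0.135 under TCE and 0.749, 1.69, 1.06 and 0.941 under oil, and the call (adjusted p = 0.0354) was lost without any 1 of 6 of the 8 arrays (adjusted p up to 0.102).

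Sf3a2, a subunit of the branch point complex, was called in both directions. On 1 probe set it read 1.39, 1.51, 1.35 and 1.47 under TCE and 0.998, 0.954, 1.002 and 1.04 under oil, a rise of 0.52 ± 0.13 (adjusted p = 0.0255). The other read 0.612, 0.854, 0.487 and 0.594 under TCE and 1.19, 0.972, 1.03 and 0.869 under oil, a fall of 0.69 ± 0.20 (adjusted p = 0.0462). The direction of Sf3a2 therefore cannot be given, and both calls were lost when single arrays were left out (adjusted p up to 0.0676 and 0.122). Leaving out 1 array at a time gave between 4 and 10 called members, with 4 without oil array 2, TCE array 1 or TCE array 4 and 5 without oil array 3. With the Gapdh value as a covariate 2 members were called, both higher, with Crnkl1 among them, where 278 of all probe sets were called. The calls of Hnrnpab, Snrpd3, Ddx6, Srsf10 and Sf3a2 were lost (adjusted p from 0.0522 to 0.457). The change was then -0.96 for Srsf10 (-2.21 before) and -0.84 for Snrpd3 (-1.56 before). For 1 Ddx6 probe set it was -0.59 (-1.005 before) and for the other it was no smaller than the -0.95 before. It was 0.62 and -0.70 for the Sf3a2 probe sets and 0.85 for Hnrnpab (1.09 before). After quantile normalization 1 member was called, where 59 of all probe sets were. Then 4 members were higher and 5 lower at an unadjusted p under 0.05, against 6.18% and 4.75% of all probe sets. Leaving out the arrays of Gapdh value above 1 keeps TCE array 2 alone in its group. The median change was then -0.05 for the members and -0.09 for all probe sets. Some markers were called here as well, where 4.14% of all probe sets fell. Apob fell by 0.77 ± 0.20 among 5 hepatocyte probe sets, and 1 of 3 erythroid probe sets fell. Of 13 stellate cell and matrix probe sets 2 fell. The array means of this list were between -1.08 and -0.64 under TCE and between -0.31 and 0.36 under oil. The part of these markers in the members' changes was not tested. Of families with no call, the smallest p belonged to Prpf8 (0.38 ± 0.15, adjusted p = 0.141) and to Dhx15, the helicase that takes spliceosomes apart (-0.29 ± 0.15, adjusted p = 0.274).

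The effect of TCE was more negative after repeated doses than after a single dose in 91 of 116 members, against 55.3% of all probe sets. The median difference, repeated minus single on the log2 scale, was -0.49 for the members and -0.09 for all probe sets. In the limma test of the difference itself, 4 members were called lower and 0 higher, where 0.668% of all probe sets were lower and 0.209% higher (0.877% in either direction). At an unadjusted p under 0.05, 36 members were lower and 4 higher, against 12.1% and 6.69% of all probe sets. Of the 38 members that fell after repeated doses, 3 had also fallen after a single dose (2 Ddx6 probe sets and Snrpd3) and 1 had risen (Crnkl1). This comparison uses the same arrays as those of each schedule and is not independent of them.

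The 4 members were Crnkl1, Xrn1, Ddx50 and Srsf3. Crnkl1 read 0.348, 0.431, 0.689 and 0.453 under TCE after repeated doses, with oil at 1.46, 0.928, 1.07 and 0.878. It went from 4.20-fold above oil after a single dose to 2.28-fold below it (-1.19 ± 0.22, adjusted p = 0.00596), a difference of -3.26 ± 0.31 (adjusted p = 0.000497). This call held when any 1 of the 16 arrays was left out. Xrn1 read 0.0420, 0.469, 0.262 and 0.356 after repeated doses, with oil at 0.966, 1.41, 1.03 and 0.926. TCE array 1 was far below the other three, and the fall of 2.37 ± 0.68 (adjusted p = 0.0392) was 1.60 without it (adjusted p = 0.0672). The call was lost without any 1 of 6 of the 8 arrays (adjusted p up to 0.0956). The difference between schedules was -4.65 ± 0.96 (adjusted p = 0.0442).

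Ddx50, on the probe set called after repeated doses, read 4.15, 2.02, 2.02 and 2.34 under TCE and 1.96, 0.608, 1.39 and 0.528 under oil after a single dose, a change of 1.37 ± 0.55 that was not called (adjusted p = 0.141). Its difference between schedules was -3.80 ± 0.78 (adjusted p = 0.0442). Srsf3, likewise, read 0.959, 0.869, 1.16 and 0.807 under TCE and 0.958, 1.04, 0.755 and 1.27 under oil after a single dose. These groups overlapped (-0.07 ± 0.19), and the difference between schedules was -1.37 ± 0.27 (adjusted p = 0.0427). The schedule differences of Xrn1, Ddx50 and Srsf3 lost their calls without any 1 of 13, 12 and 12 of the 16 arrays, with adjusted p up to 0.0993, 0.0961 and 0.0914. In the other families the smallest p belonged to Prpf8 (-0.94 ± 0.22, adjusted p = 0.0552), Snrpb2 (1.29 ± 0.32, 0.0642), Sf3b1 (-1.12 ± 0.30, 0.0769), Hnrnpk (-0.76 ± 0.24, 0.118) and Dhx30 (0.82 ± 0.38, 0.261), none of them called. Without 1 array, between 1 and 5 members were called, with 1 or 2 in 12 of 16 cases. After quantile normalization 0 members were called, where 0 of all probe sets were. Then 10 members were lower and 1 higher at an unadjusted p under 0.05, against 2.83% and 2.43% of all probe sets. Leaving out the arrays of Gapdh value above 1 keeps 1 TCE array in each schedule. The median difference was then -0.46 for the members and -0.08 for all probe sets.

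**Figure D3:**
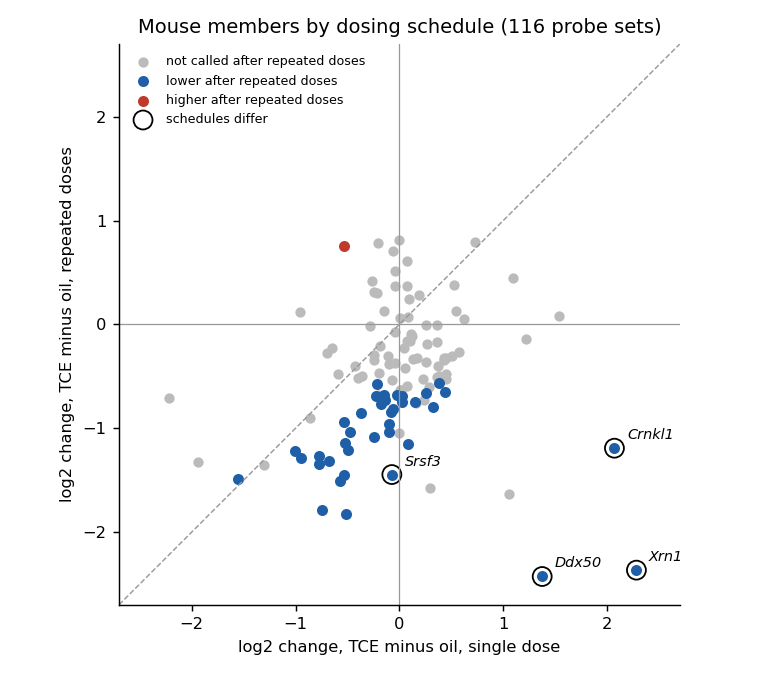
Log2 change of each mouse member probe set after a single dose (x axis) and after repeated doses (y axis) of TCE against oil, with the diagonal of equal change. Of the 116 points, 91 lie below the diagonal, and Crnkl1, Xrn1 and Ddx50 lie farthest from it.

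The promoters of these 4 genes are shown because they are the members whose response to TCE differed between the schedules. Each is the stretch of 100 bases just before the annotated transcription start in RefSeq's annotation of mouse build GRCm38.p6, read 5′ to 3′ on the gene's strand. Capitals mark matches on either strand to the box named CCAAT, to the GC box GGGCGG, to the TATA box, searched as TATAAA, and to CCGGAAG, a core bound by ETS factors. Crnkl1 lies at chr2:145934701-145934800 on the minus strand, Xrn1 at chr9:95954660-95954759 on the plus strand, Ddx50 at chr10:62651219-62651318 on the minus strand and Srsf3 at chr17:29032560-29032659 on the plus strand.
Crnkl1: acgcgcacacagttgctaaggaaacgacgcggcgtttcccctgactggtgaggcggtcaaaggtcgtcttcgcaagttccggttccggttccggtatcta
Xrn1: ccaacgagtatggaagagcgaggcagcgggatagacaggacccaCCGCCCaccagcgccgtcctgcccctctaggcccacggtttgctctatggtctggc
Ddx50: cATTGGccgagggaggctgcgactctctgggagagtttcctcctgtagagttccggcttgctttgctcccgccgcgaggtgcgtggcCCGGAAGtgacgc
Srsf3: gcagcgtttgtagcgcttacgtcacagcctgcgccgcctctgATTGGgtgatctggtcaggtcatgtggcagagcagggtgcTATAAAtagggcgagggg
No motif was found in all 4 sequences. Crnkl1 held none, Xrn1 held a GC box, Ddx50 held CCAAT and CCGGAAG matches, and Srsf3 held CCAAT and TATAAA matches. The TATAAA match of Srsf3 lay 18 to 13 bases before the annotated start.

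Over the whole set, 76 of 82 mouse member genes had a promoter window, taken from 250 bases before to 50 after the start. CCGGAAG was found in 31 of the 76 (40.8%), against 15.7% of the 6576 array genes with a window and 9.12% of all 27025 genes in the table. CCAAT was found in 50.0% of members against 38.3% of array genes, GGGCGG in 67.1% against 59.3% and TATAAA in 6.58% against 10.4%. Within the members, CCGGAAG was found in 12 of 31 genes called lower after repeated doses (38.7%) and in 19 of 45 that were not (42.2%). A match is a description of the letters and not a bound site, and no match says only that the letters are not in this window.

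In rat the members' median change lay above that of all probe sets after either schedule. After a single dose the median log2 change was 0.40 for the 45 members and 0.14 for all probe sets. By limma 3 members rose and 0 fell, where 1.21% of all probe sets rose and 0.503% fell. At an unadjusted p under 0.05, 16 members were higher and 0 lower, against 12.5% and 6.65% of all probe sets. All 4 TCE arrays lay above all 4 oil arrays in 14 members, against 8.79% of all probe sets, and below them in 0, against 3.72%. The log2 change was below 0 in 10 members, against 39.2% of all probe sets. The median over the members was 0.35, 0.34, 0.46 and 0.44 on the 4 TCE arrays, where the Gapdh value was -0.30, -0.66, 0.10 and 1.90, and between -0.26 and 0.13 on the oil arrays.

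Ddx21, a nucleolar helicase of ribosomal RNA synthesis, rose 2.32-fold in rat after a single dose. It read 2.41, 2.57, 2.43 and 2.71 under TCE and 1.57, 0.902, 0.974 and 1.03 under oil (log2 change 1.21 ± 0.22, adjusted p = 0.0181). The groups did not overlap, and the adjusted p rose to at most 0.0595 when 1 array was left out, with the call lost in 4 of 8 cases. Hnrnpa1 rose by 0.78 ± 0.18 on M12156_at, with 1.72, 1.58, 1.89 and 2.01 under TCE and 0.892, 1.38, 0.860 and 1.11 under oil (adjusted p = 0.0466). Its other 3 probe sets gave 0.78, 0.14 and -0.13 and were not called.

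Ddx42, a helicase associated with the branch point complex, rose by 2.37 ± 0.56 in rat after a single dose (adjusted p = 0.0483). It read 4.04, 6.21, 4.27 and 5.04 under TCE and 2.26, 0.341, 0.876 and 1.12 under oil, so that the oil arrays spread widely. The calls of Ddx42 and Hnrnpa1 were each lost without any 1 of 7 of the 8 arrays, with adjusted p up to 0.142 and 0.108. The median change over all probe sets was 0.14, with 39.2% of them below 0, and centring left 1 member called (77 probe sets higher and 107 lower in all, against 106 and 44 before). After quantile normalization 0 members were called, with 5 higher and 0 lower at an unadjusted p under 0.05, against 3.44% and 4.81% of all probe sets. Without the array of Gapdh value above 1 there were 0 as well, with 13 higher and 0 lower, against 12.5% and 5.84%. Without oil array 4, TCE array 1 or TCE array 4 the count was 0 as well, and without oil array 2, TCE array 2 or TCE array 3 it was 1. Of 15 hepatocyte probe sets, 3 rose, all of Apob. The median change of the list was 0.02, and its array means, which include the Apob changes of 2.56, 4.59 and 6.50, were between 0.56 and 1.16 under TCE and between -0.32 and 0.29 under oil. Their part in the members' changes was not tested. The largest rat value was not a call: 1 of 2 probe sets of Dhx36, a helicase of guanine quadruplexes, gave 3.59 ± 0.94 (adjusted p = 0.0676), and the other 0.97.

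After repeated doses in rat, the median log2 change was 0.18 for the members and 0.04 for all probe sets. By limma 3 members rose and 0 fell, where 2.16% of all probe sets rose and 0.652% fell. At an unadjusted p under 0.05, 13 were higher and 2 lower, against 11.9% and 7.04% of all probe sets. All TCE arrays lay above all oil arrays in 6 members, against 7.52% of all probe sets, and below them in 1, against 4.78%. The log2 change was below 0 in 17 members, against 46.4%. In either direction 2.81% of all probe sets were called. Among the markers of liver cell types, Lyve1 rose by 1.13 ± 0.22 and Pecam1 fell by 1.43 ± 0.26 among 5 endothelial probe sets, and Sparc rose by 1.21 ± 0.25 among 13 stellate cell and matrix probe sets. The median of 8 Kupffer cell and macrophage probe sets was -0.66 with 0 called, and their array means were between -1.20 and -0.27 under TCE and between -0.46 and 0.25 under oil. The part of these markers in the members' changes was not tested.

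Hnrnpa2b1, an hnRNP protein that sorts RNAs for transport, rose 2.05-fold on rc_AA799511_g_at. It read 2.20, 1.87, 1.93 and 2.32 under TCE and 0.799, 1.33, 1.13 and 0.871 under oil (1.04 ± 0.19, adjusted p = 0.0100). The other 3 Hnrnpa2b1 probe sets gave 0.62, 0.17 and -0.19 and were not called. Srsf11, an SR-related protein, rose by 1.17 ± 0.26, with 2.87, 2.34, 2.22 and 2.84 under TCE and 1.05, 1.76, 0.945 and 0.946 under oil (adjusted p = 0.0265). Xrn2 rose by 1.08 ± 0.26 (adjusted p = 0.0432), with 2.41, 2.12, 1.40 and 2.39 under TCE and 0.940, 1.33, 1.06 and 0.652 under oil. The calls of Srsf11 and Xrn2 were each lost without any 1 of 6 of the 8 arrays (adjusted p up to 0.0755 and 0.108).

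Xrn2 was also higher after a single dose in rat, where it read 1.84, 1.70, 1.79 and 2.47 under TCE and 1.39, 1.03, 0.967 and 0.711 under oil, but was not called (0.95 ± 0.26, adjusted p = 0.0788). With the Gapdh value as a covariate, without the arrays of Gapdh value above 1, with only the 8 arrays compared and after quantile normalization, limma called 0 members after repeated doses in rat, while 12, 10, 13 and 5 were higher at an unadjusted p under 0.05. Of all probe sets 10.5%, 10.1%, 10.5% and 4.74% were higher under these settings. The median change with the Gapdh covariate was 0.13 for the members and 0.10 for all probe sets. Without the arrays of Gapdh value above 1 these medians were 0.14 and 0.06. Without oil array 2 the count of called members was 6, and it was 1 without any 1 of the other arrays except TCE array 3. The Gapdh value on these TCE arrays was 0.33, 0.82, 2.07 and 1.60 and the members' median 0.09, 0.23, 0.15 and 0.33. Snrpd3, low in mouse after both schedules, had the smallest p of the rat Snrp members, at -0.66 ± 0.20 after repeated doses (adjusted p = 0.0768) and -0.41 ± 0.20 after a single dose (adjusted p = 0.270).

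Members that fell in mouse gave mixed values in rat. The Srsf5 probe sets gave -0.77 and -0.21 after repeated doses, Ddx39b gave -0.09 to 0.33 over 4 probe sets, and Hnrnpm gave -2.31 with a standard error of 1.28. Ddx50 gave 0.46 and Hnrnpab, which rose in mouse after a single dose, gave 0.88. The only Prpf and Sf3 members, Prpf3 and Sf3b1, gave 0.59 and 1.10 after a single dose and -0.41 and -0.51 after repeated doses. None of these was called.

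The species were compared over the 23 member genes measured in both, with 1 probe set a gene. After repeated doses the median change was -0.52 in mouse and 0.20 in rat. In limma's test of mouse change minus rat change over 3056 shared genes, 8 of the 23 were called and all were lower in mouse, where 8.51% of all shared genes were lower in mouse and 2% higher. The median difference over all shared genes was -0.23. After a single dose the medians were 0.00 in mouse and 0.40 in rat, and 1 of 23 was called, lower in mouse, where 2.72% of shared genes were lower and 1.51% higher (4.22% in either direction).

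Ddx3x differed with the smallest p after repeated doses, by -1.74 ± 0.25 (adjusted p = 8.03e-05). In rat it read 1.10, 1.17, 1.51 and 1.19 under TCE and 0.960, 1.04, 0.919 and 1.14 under oil, against the mouse fall given above. Srsf10 differed by -3.45 ± 0.71 (adjusted p = 0.00250), with 2.63, 2.49, 2.80 and 3.53 under TCE in rat, but its rat oil arrays ranged from 0.294 to 3.30. Dhx9 differed by -1.34 ± 0.29 (adjusted p = 0.00326). It read 1.91, 1.66, 1.54 and 1.68 under TCE in rat, above all oil values of 0.974 to 1.40, and 0.465, 0.601, 0.530 and 0.650 in mouse, where oil ranged from 0.642 to 1.01.

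Xrn2 fell short of the threshold in mouse after repeated doses (-1.58 ± 0.54, adjusted p = 0.0731), where it read 0.202, 0.291, 0.943 and 0.320 under TCE and 1.95, 1.03, 0.727 and 0.969 under oil. It was called without TCE array 3 (-2.04, adjusted p = 0.0260). Its difference between the species was called (-2.66 ± 0.61, adjusted p = 0.00540). Srsf11 (-1.69 ± 0.38), Hnrnpd, a protein of AU-rich mRNA decay (-1.50 ± 0.42), Ddx21 (-1.21 ± 0.27) and Hnrnpc, which binds uridine tracts (-0.84 ± 0.28), made up the rest of the 8. The Hnrnpc call was lost without any 1 of 12 of the 16 arrays (adjusted p up to 0.106), and the Hnrnpd call without mouse TCE array 1 (adjusted p = 0.0517).

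Ddx21 was the only member called after a single dose as well, at -1.41 ± 0.27 (adjusted p = 0.00335), with mouse TCE values of 0.939, 1.06, 0.652 and 0.965. The single-dose count was 2 without mouse oil array 1 and 3 without mouse TCE array 2. After repeated doses between 7 and 9 genes were called when 1 array was left out, 6 after centring and 6 without the arrays of Gapdh value above 1. After quantile normalization 0 of 23 were called, with 7 lower in mouse and 0 higher at an unadjusted p under 0.05, against 5.14% and 4.55% of all shared genes. The mouse and rat arrays carry different probes, so that a difference between species is also one between probe sets.

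**Figure D4:**
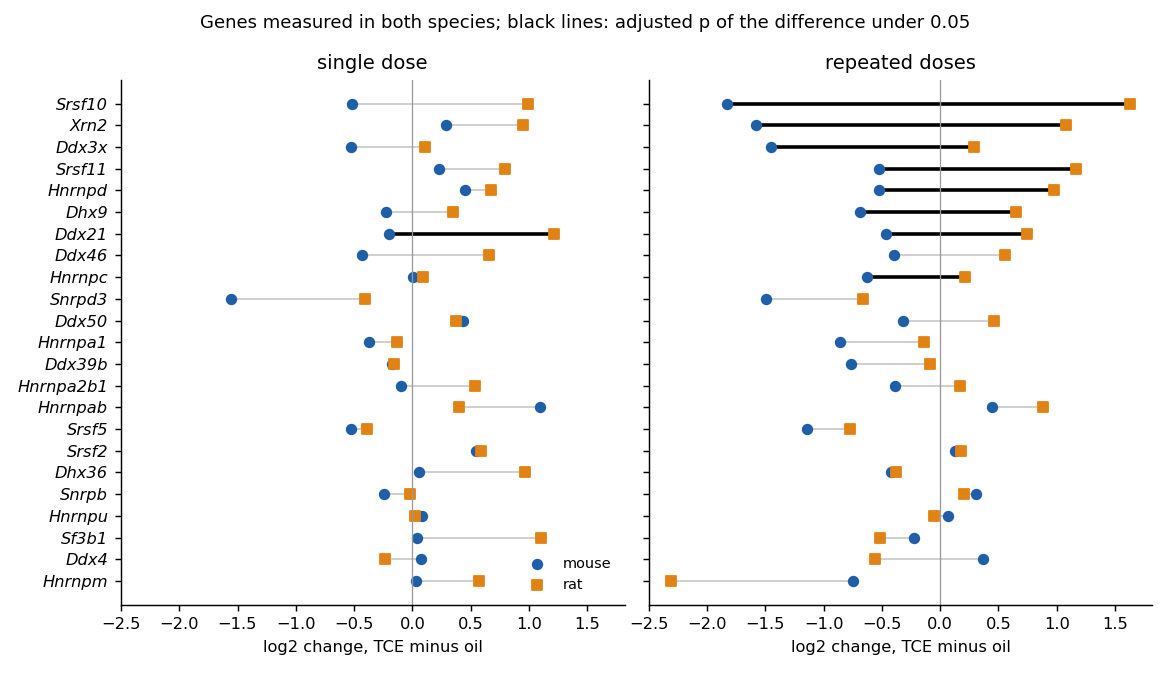
Log2 change of TCE against oil in mouse and in rat for the 23 member genes measured in both species, after a single dose and after repeated doses, with a line joining the 2 values of a gene. After repeated doses the mouse value is below the rat value for 18 of 23 genes.

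Probe sets of a gene often disagreed. In mouse, 27 member genes had several probe sets, and all probe sets of a gene changed in the same direction in 13 of them after repeated doses and in 11 after a single dose. In rat it was 7 of 10 after a single dose and 2 of 10 after repeated doses. Counted over the 84 mouse members without a letter before "_at", 28 were called after repeated doses, all lower, and 3 after a single dose. Of all mouse probe sets, with or without such a letter, 10.7% were called after repeated doses and 8.3% after a single dose. The share among all probe sets without a letter was not computed. When the probe sets of a gene were averaged, 27 of 82 genes were called after repeated doses, all of them lower, where 9.28% of all genes were lower.

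Other genes of RNA processing, from lists outside the member families, were set beside the members. Of all mouse probe sets, 4.16% rose and 4.14% fell after a single dose, and 2.24% rose and 8.48% fell after repeated doses. Of all rat probe sets, 1.21% rose and 0.503% fell after a single dose, and 2.16% rose and 0.652% fell after repeated doses. Of 92 mouse probe sets of other splicing factors, 16 fell and 0 rose after repeated doses, with a median of -0.45. Among those that fell were Lsm7 (-1.28 ± 0.25) and Lsm8 (-0.84 ± 0.16), which bind the spliceosomal RNA that pairs with the splice site, and Clk4, a kinase of SR proteins (-0.86 ± 0.19). After a single dose 4 rose and 2 fell in this list with a median of 0.04, and both probe sets of Son, a splicing cofactor of nuclear speckles, rose (0.80 and 1.19). In rat, 1 of 40 probe sets rose after a single dose, and 3 rose and 1 fell after repeated doses, with Rbm39, a splicing coactivator, at 1.25 ± 0.26 and the kinase Clk3 at -0.78 ± 0.19. Tra2b, an SR-like activator, rose after both schedules in rat (1.0 ± 0.17 and 0.79 ± 0.17).

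Cytoplasmic decay factors formed another list. Of 28 mouse probe sets for deadenylation, decapping and AU-rich decay, 5 fell after repeated doses, where 8.48% of all probe sets did. The median was -0.36, and among those that fell were Cnot8, a deadenylase subunit (-0.68 ± 0.15), and Elavl1, a protein that stabilises AU-rich mRNAs (-0.61 ± 0.14). After a single dose 2 rose and 1 fell, where 4.16% of all probe sets rose and 4.14% fell. Pabpc1, the cytoplasmic poly(A)-binding protein, rose by 1.47 ± 0.22 and Zfp36, which directs AU-rich mRNAs to decay, fell by 0.71 ± 0.20. Noct, a protein of the deadenylase family with a daily rhythm in liver, rose by 1.06 ± 0.17 on 1 probe set after a single dose and fell by 2.12 ± 0.38 on another after repeated doses. The difference between schedules on the latter was -3.32 ± 0.54 (adjusted p = 0.0185).

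Of 12 mouse probe sets of 6 genes in the list for the exon junction complex and nonsense-mediated decay, 4 rose after a single dose. Of all probe sets 4.16% did. The 4 were 3 probe sets of Etf1 and 1 of Gspt1, the translation release factors (0.71 to 1.22). After repeated doses Rbm8a, a core protein of the junction complex, fell by 0.96 ± 0.17. Of 11 probe sets in the exosome list, 1 rose after a single dose, where the list's median was -0.29. This probe set was of Hbs1l, which is not a subunit of the exosome itself. None was called after repeated doses, where the median was 0.00. Of 27 probe sets for cleavage, polyadenylation and export, 5 fell and 1 rose after repeated doses, where 8.48% of all probe sets fell and 2.24% rose. Pabpn1, the nuclear poly(A)-binding protein, fell after both schedules (-0.95 ± 0.15 and -0.92 ± 0.15). Fip1l1, a subunit of the polyadenylation machinery, fell by 1.19 ± 0.22 after repeated doses, and the export factor Rae1 rose by 0.69 ± 0.12. In rat, 2 of 10 probe sets of this list rose after a single dose, Thoc2 and Papola, and 1 after repeated doses, Cpsf7.

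**Figure D5:**
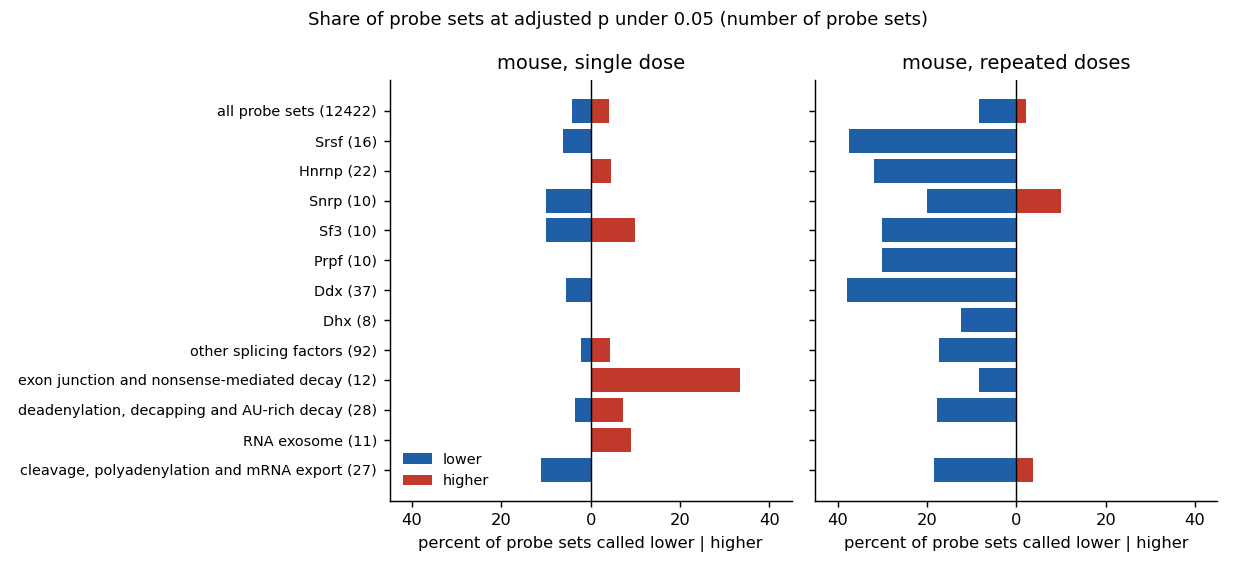
Percent of mouse probe sets called lower (left of 0) and higher (right of 0) after a single dose and after repeated doses, for all probe sets, each member family and each further list, with the number of probe sets in brackets. After repeated doses 14 of 37 Ddx and 6 of 16 Srsf probe sets are lower. After a single dose 4 of 12 probe sets in the exon junction and nonsense-mediated decay list are higher. All 4 belong to the translation release factors Etf1 and Gspt1.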

How the data were processed

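Liver RNA was hybridised to Affymetrix arrays. Signals were made with MAS5 by the authors, per the submitters' processing notes, with no version given. The deposited values were ratios to the oil-group median of that species and dosing schedule, as found from the values. The division and any scaling per array are not described in the sources used here.

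Control probe sets (66 mouse, 59 rat) were left out. The log2 of each deposited ratio entered limma (version 3.58.1, R 4.3.3; lmFit, then eBayes) with group means over the 16 arrays of a species, or over 32 arrays and 3056 shared genes between species, for which each gene kept the probe set that varied least within groups. P-values were adjusted by Benjamini-Hochberg across everything tested in a comparison, with a threshold of 0.05. No filter, floor or pseudocount was used, since no signal level is known. The number of arrays limits the precision. Standard errors are those of limma. Scripts were tested on simulated data.

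Gene names came from the platform annotation, which gives 1 symbol for 10833 mouse and 7006 rat probe sets. Members were named as the up to 10 largest rises and falls past the threshold in each comparison, the smallest p of each family, Crnkl1, Xrn1 and Xrn2, the other probe sets of such genes, and their counterparts in the other species. In the other lists up to 3 members with the smallest p past the threshold were named. Further members past the threshold were named after their values were seen. The members and lists were chosen with earlier results of these data known. Alternatives were quantile normalization, centring, log2(ratio + 1), only the groups compared, a replicate block, the Gapdh 3' minus 5' value as a covariate, leaving out arrays where it was above 1, averaging probe sets by gene, and leaving out single arrays. Counting only probe sets without a letter before "_at" was added after seeing the data. Within a group, the largest share of identical values between 2 arrays was 0.0023 in mouse and 0.0022 in rat. Arrays of different groups were not compared in this way.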

Additional observations from a re-analysis of the deposited data

Results flagged for a closer look

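In mouse after repeated doses, Snrpb2, on the probe set that rose, had 1 oil array apart from the others: oil array 2 was at -0.16 (log2 ratio) and the others at -0.01, 0.01 and 0.01. Its gap was 0.871 of the group's range, above the critical value of 0.829 for 4 samples. This was 1 of 50 groups looked at, where chance gives about 1 in 20.

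The effect of TCE in mouse differed between schedules, repeated minus single on the log2 scale, for Crnkl1 (-3.26), Xrn1 (-4.65), 1 probe set of Ddx50 (-3.80) and 1 of Srsf3 (-1.37). The effect differed between species after repeated doses, mouse minus rat, for Ddx3x (-1.74), Srsf10 (-3.45), Dhx9 (-1.34), Srsf11 (-1.69), Ddx21 (-1.21), Xrn2 (-2.66), Hnrnpd (-1.50) and Hnrnpc (-0.84). After a single dose it differed for Ddx21 (-1.41).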

How the results depend on the processing

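After quantile normalization the counts of called members were 1 (mouse, single dose) and 0 (mouse repeated, mouse schedule difference, both rat schedules and both species differences). Over all mouse probe sets 59, 7 and 0 were then called, over all rat probe sets 2 and 7, and over all shared genes 7 and 6. Without the arrays of Gapdh value above 1, 0 members were called for both rat schedules, where 29 and 133 of all probe sets were. In mouse the members' medians were then -0.05 (single dose), -0.54 (repeated doses) and -0.46 (schedule difference), against -0.09, -0.14 and -0.08 for all probe sets. In the single-dose species difference the medians were -0.52 for the members and -0.23 for all shared genes. Centring gave 25 for mouse repeated doses and 1 for the rat single dose. With log2(ratio + 1) the rat single dose gave 6 and the single-dose species difference 2. With only the groups compared, mouse repeated doses gave 14, the rat single dose 1, rat repeated doses 0 and the single-dose species difference 3. The Gapdh covariate gave 2 for the mouse single dose and 0 for rat repeated doses. Averaging probe sets by gene gave 2 for the schedule difference and 3 for the single-dose species difference. Probe sets without a letter before "_at" gave 3 for the mouse single dose and 2 for the schedule difference. Leaving out 1 array gave 4 to 10 for the mouse single dose, 22 to 31 for mouse repeated doses, 1 to 5 for the schedule difference, 0 to 2 and 1 to 6 for rat single and repeated doses, and 1 to 3 and 7 to 9 for the species differences. Arrays of the same replicate number did not deviate together (correlations of -0.17 to 0.08), so the numbers were not taken as pairs; with the replicate number as a block the counts were 7 for the mouse single dose, 30 for mouse repeated doses, 1 for the schedule difference, 1 and 2 in rat, and 1 and 7 for the species differences. Xrn2 in mouse after a single dose, not called, went from 0.29 to -0.19 with the Gapdh covariate (limma adjusted p = 0.933). It was the only result that changed sign among those followed through the alternatives. Members named only for the smallest p of a family were not among these. The cause of these shifts was not tested, except that leaving out arrays and using fewer groups leaves fewer samples. Leaving out the arrays of Gapdh value above 1 keeps 1 TCE array in each mouse schedule, which is assumed to vary like the other groups. Signal over background is unknown, so the members near background cannot be named.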
